A study of Mus musculus with 19 samples.

Results

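The genes that copy DNA and mark S phase were followed in regulatory T cells (Tregs) sorted by CD44, an adhesion receptor that is high on antigen-experienced T cells. The set held 47 genes, chosen by symbol for their roles in origin licensing, fork assembly, DNA synthesis, deoxynucleotide supply, chromatin copying and entry into S phase. The choice was made with earlier results of these data known, so counts and medians over the set are descriptions. All 47 were found among the 24982 genes of the count table, which lists symbols in capitals (MCM2, PCNA, RRM2, E2F1), and all 47 were among the 11464 genes that passed the filter on low counts. Tregs (CD4+Foxp3-GFP+) were taken from Foxp3DTR mice, which carry a diphtheria toxin receptor and GFP at the *Foxp3* locus, so that all groups shared this allele. The mice were 8 to 16 weeks old. Burn mice had 20% of the body surface held in water at 90 °C for 9 s under anaesthesia, and sham mice were treated alike with water at room temperature. Injury-draining axillary, brachial and inguinal lymph nodes were taken at day 7 in burn mice, and 50000 cells were sorted for each sample. The 4 groups were CD44high Tregs of sham mice (n = 4), CD44low Tregs of sham mice (n = 5), CD44high Tregs of burn mice (n = 4) and CD44low Tregs of burn mice (n = 6). The labels do not say whether a sample came from a single mouse or from several, and p-values measure the spread between these samples. The CD44low burn libraries were numbered 1, 2, 5, 1_2, 4_2 and 5_2, and all 6 were counted as separate samples. The labels do not say whether 1_2 and 5_2 repeat 1 and 5. If so, this group holds fewer independent samples, and its SDs and p-values rest partly on repeats.

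DNA replication starts from origins that are licensed in G1, when the origin recognition complex, CDC6 and CDT1 load the MCM2-7 helicase onto DNA. At the start of S phase CDC45 and the GINS complex join MCM2-7 to form the active helicase, polymerase alpha with primase lays down primers, and polymerases delta and epsilon extend them with the PCNA clamp. Ribonucleotide reductase and thymidylate synthase supply the deoxynucleotides. Most of these genes are transcribed at the G1 to S transition under E2F transcription factors, which RB family proteins hold in check in resting cells. Resting lymphocytes hold many of these mRNAs at low levels, and activated T cells that enter the cell cycle raise them.

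The promoters of the set were searched for letter patterns. Most genes of these roles are under E2F control, so a raised share of E2F-type letters could be foreseen from the choice of genes. Promoter windows of 300 bases (250 before to 50 after each RefSeq start site, assembly GRCm38.p6) were matched by symbol for 39 of the 47 genes, and the others (*Ccne2*, *Exo1*, *Gins1*, *Gins2*, *Gins4*, *Mcm4*, *Pole* and *Prim2*) had no entry. E2F-type letters (TTTCCCGC, TTTGGCGC, TTTCGCGC or TTTGCCGC, on either strand, with overlaps allowed) stood in a window of 17 of these 39 genes (43.6%), against 4.89% of the tested genes with a window and 2.6% of all genes with a window. CCAAT stood in 61.5% of the 39 genes and in 43% of the tested genes. The CHR letters of late cell cycle promoters (TTTGAA or TTCGAA) stood in 20.5% of the 39 genes and in 16.6% of the tested genes. In the 31 genes with a window among 38 further genes of the replication machinery, the E2F-type letters stood in 22.6%. In 24 genes of G2 and M phase, 21 of which had a window, the order was the other way round, with the E2F-type letters in 4.76% and the CHR letters in 76.2%. These are matches of letters, not binding sites.

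**Figure D1:**
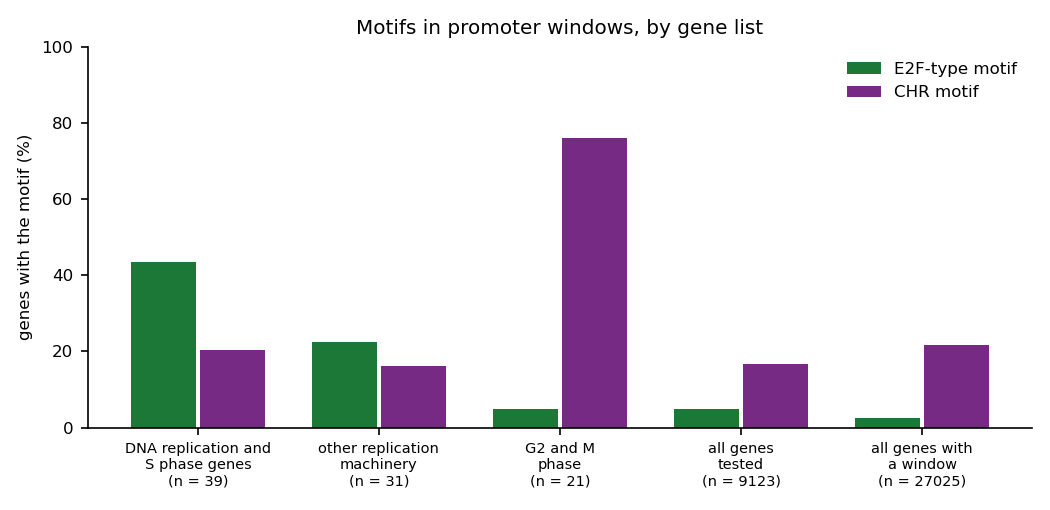
Bars give the percentage of genes with at least 1 RefSeq promoter window that holds the E2F-type letters (green) or the CHR letters (purple), in 5 gene lists named on the horizontal axis with the number of genes that had a window. The E2F-type bar is highest in the DNA replication and S phase genes (43.6%) and the CHR bar in the G2 and M phase genes (76.2%).

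Windows are shown for *Mcm6*, the most abundant member per length, for *Mcm7*, the single member with a called interaction of injury and subset, for *Cdc6* and *Dtl*, both scarce in CD44low Tregs, and for *Rrm2*, the member of smallest p between the subsets. Capitals mark E2F-type letters on either strand, and *Rrm2* had none in its window. The windows lie at chr1:128359656-128359955, minus strand for *Mcm6*, chr5:138171834-138172133, minus strand for *Mcm7*, chr11:98907901-98908200, plus strand for *Cdc6*, chr1:191575495-191575794, minus strand for *Dtl* and chr12:24708004-24708303, plus strand for *Rrm2*, and each is written 5′ to 3′ in the direction of its gene. *Mcm7* had a further window without these letters. In *Mcm6*, the first marked run is a pair of overlapping matches, 1 on each strand.
*Mcm6*: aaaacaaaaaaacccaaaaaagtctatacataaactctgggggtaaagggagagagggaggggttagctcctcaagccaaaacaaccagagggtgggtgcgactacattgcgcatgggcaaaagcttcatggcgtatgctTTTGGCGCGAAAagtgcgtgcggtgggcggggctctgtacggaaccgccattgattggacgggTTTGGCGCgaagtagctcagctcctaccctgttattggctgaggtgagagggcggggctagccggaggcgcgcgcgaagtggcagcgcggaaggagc
*Mcm7*: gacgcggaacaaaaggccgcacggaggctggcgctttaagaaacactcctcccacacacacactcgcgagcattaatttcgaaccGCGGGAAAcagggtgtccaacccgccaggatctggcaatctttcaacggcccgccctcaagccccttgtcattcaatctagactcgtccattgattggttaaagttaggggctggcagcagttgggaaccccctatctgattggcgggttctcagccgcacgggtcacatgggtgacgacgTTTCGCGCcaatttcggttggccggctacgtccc
*Cdc6*: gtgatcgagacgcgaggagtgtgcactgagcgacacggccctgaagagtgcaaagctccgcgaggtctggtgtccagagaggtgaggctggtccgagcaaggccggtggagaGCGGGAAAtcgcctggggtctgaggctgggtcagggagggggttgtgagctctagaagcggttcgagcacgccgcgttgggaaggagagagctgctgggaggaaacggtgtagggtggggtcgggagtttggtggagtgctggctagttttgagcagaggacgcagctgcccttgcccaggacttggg
*Dtl*: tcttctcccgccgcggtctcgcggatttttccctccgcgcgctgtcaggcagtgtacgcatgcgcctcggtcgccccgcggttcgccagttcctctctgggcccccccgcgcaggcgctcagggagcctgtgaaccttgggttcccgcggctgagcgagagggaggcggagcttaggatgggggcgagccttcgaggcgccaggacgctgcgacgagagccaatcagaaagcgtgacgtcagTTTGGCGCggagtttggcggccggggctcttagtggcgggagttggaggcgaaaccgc
*Rrm2*: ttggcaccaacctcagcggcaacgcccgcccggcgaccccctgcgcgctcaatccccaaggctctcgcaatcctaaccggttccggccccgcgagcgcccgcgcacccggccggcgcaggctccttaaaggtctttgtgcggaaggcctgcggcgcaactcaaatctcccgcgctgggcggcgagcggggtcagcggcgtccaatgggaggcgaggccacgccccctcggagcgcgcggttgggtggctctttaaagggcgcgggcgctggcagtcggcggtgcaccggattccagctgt

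The libraries held 5582234 to 9433610 counts, the highest in a CD44high burn library. *Foxp3* and *Cd4* were present in every library (*Foxp3* mean 87.7, 115, 70.6 and 103 CPM, counts scaled to library size, in CD44high sham, CD44low sham, CD44high burn and CD44low burn). *Cd44* followed the sort, at 541 to 626 CPM in CD44high sham and 111 to 155 CPM in CD44low sham libraries. Markers of other cells also moved with the subsets. The 10 macrophage and dendritic cell markers summed to 94.8 to 170.2 CPM in CD44high sham and 107 to 252 in CD44high burn libraries, against 23.8 to 42.7 and 35.1 to 157 in the CD44low libraries, where *Clec9a* was at 0 in the sham group. The 10 B cell markers, none at 0, lay at 120.3 to 254, 98.9 to 192, 173 to 339 and 132 to 260.4 CPM in the same order of groups as for *Foxp3*. The 8 markers of germinal centre B cells and plasma cells summed to 46.7 to 60.2 and 52.2 to 60.2 CPM in CD44high and 14.4 to 38.3 and 26.1 to 33.2 CPM in CD44low libraries, with *Tnfrsf17* at 0 in all groups. The 10 stromal markers summed to 59.4 to 74.3 and 78.7 to 115 CPM in CD44high and 188 to 219.9 and 137 to 231 CPM in CD44low libraries. Most of this sum was *Pecam1* (mean 60.7 and 97.8 against 201 and 192 CPM), while *Col1a1* lay the other way (mean 2.36 CPM in CD44high and 0.0567 CPM in CD44low sham), with *Pdpn*, *Ccl19* and *Ccl21a* at 0 in every group. The 10 neutrophil markers reached 0.833 and 1.69 CPM at most in sham and 31.4 and 44.1 CPM in burn libraries, and *Elane* was at 0 throughout. The CD8 and NK cell list lay at 70.2 to 105 CPM (*Klra4* and *Klra8* at 0) and the erythroid list, whose haemoglobin genes were at 0, at or below 2.24 CPM in all libraries. Counts of long against short transcripts also differed between libraries, from 0.23 to 0.57 log2 units in CD44low sham, -0.19 to -0.08 in CD44high sham, -0.82 to 0.04 in CD44high burn and -0.49 to 0.47 in CD44low burn libraries. The part of these markers and of transcript length in the differences was not tested, except that the length trend was taken out in an alternative fit.

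Averaged over the 47 genes, replication and S phase mRNA was high in CD44high Tregs and low in CD44low Tregs, with no overlap between libraries of the subsets. The mean log2 CPM was 5.85, 6.02, 6.11 and 6.02 in the CD44high sham libraries and 3.84, 3.58, 3.75, 3.84 and 3.66 in the CD44low sham libraries. In burn mice it was 5.68, 5.62, 5.75 and 5.68 in CD44high libraries, and in CD44low libraries the lowest, median and highest values were 3.70, 3.92 and 4.13. Group means were therefore 6.0 ± 0.11 (SD, n = 4), 3.73 ± 0.12 (n = 5), 5.68 ± 0.05 (n = 4) and 3.92 ± 0.17 (n = 6). All 4 CD44high burn libraries lay below all 4 CD44high sham libraries, and the CD44low burn libraries overlapped the CD44low sham libraries. In bulk RNA, fewer cells in cycle and less of these mRNAs in each cell cannot be told apart.

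**Figure D2:**
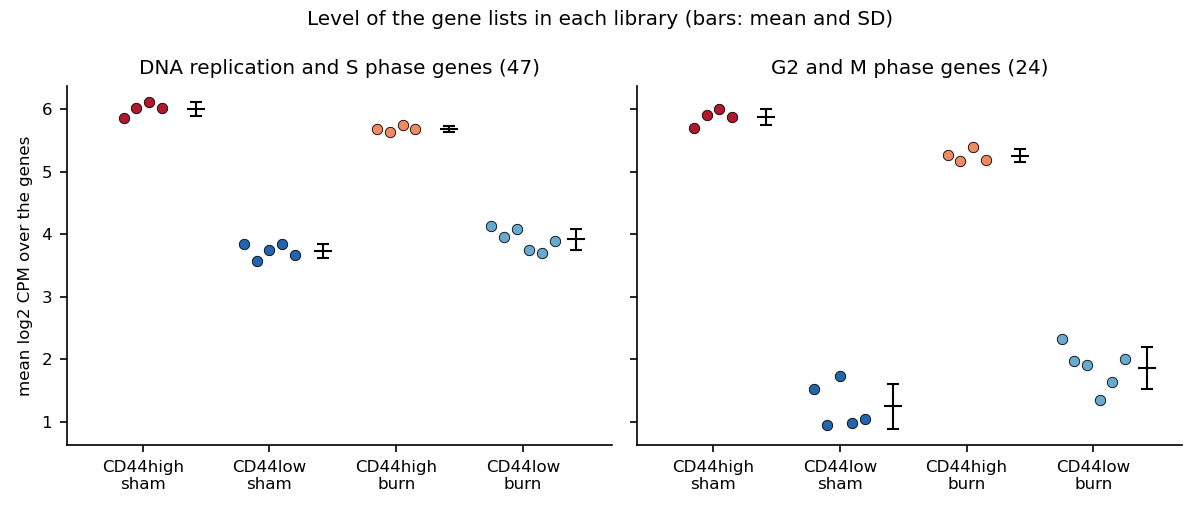
Points are libraries, grouped on the horizontal axis by subset and injury, and the vertical axis gives the mean log2 CPM over the 47 DNA replication and S phase genes (left) and over 24 G2 and M phase genes (right), with bars for the mean and SD. In both panels every CD44high library lies above every CD44low library, and the CD44high burn libraries lie below the CD44high sham libraries.

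Between the subsets of sham mice, 44 of the 47 genes were higher in CD44high Tregs and none was lower at an adjusted p under 0.05 (quasi-likelihood F test in edgeR, adjusted over 11464 genes by the method of Benjamini and Hochberg). Over all tested genes, 24.7% were called higher and 21.3% lower in the same comparison. The median difference of the 47 genes was 1.82 on the log2 scale, against 0.00911 for all tested genes. In 44 genes the lowest CD44high sham library exceeded the highest CD44low sham library, a pattern found in 21.9% of all tested genes. In burn mice 43 genes were higher and none lower, against 20.1% and 17.2% of all tested genes, and the median difference was 1.37, against -0.000490 for all. Groups did not overlap for 42 genes there, against 15.6% of all. The 4 uncalled genes in burn mice were *Dnmt1*, *Gins3*, *Gins4* and *Pold1*, and the 3 uncalled genes in sham mice were *Dnmt1*, *Gins4* and *Pole*.

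**Figure D3:**
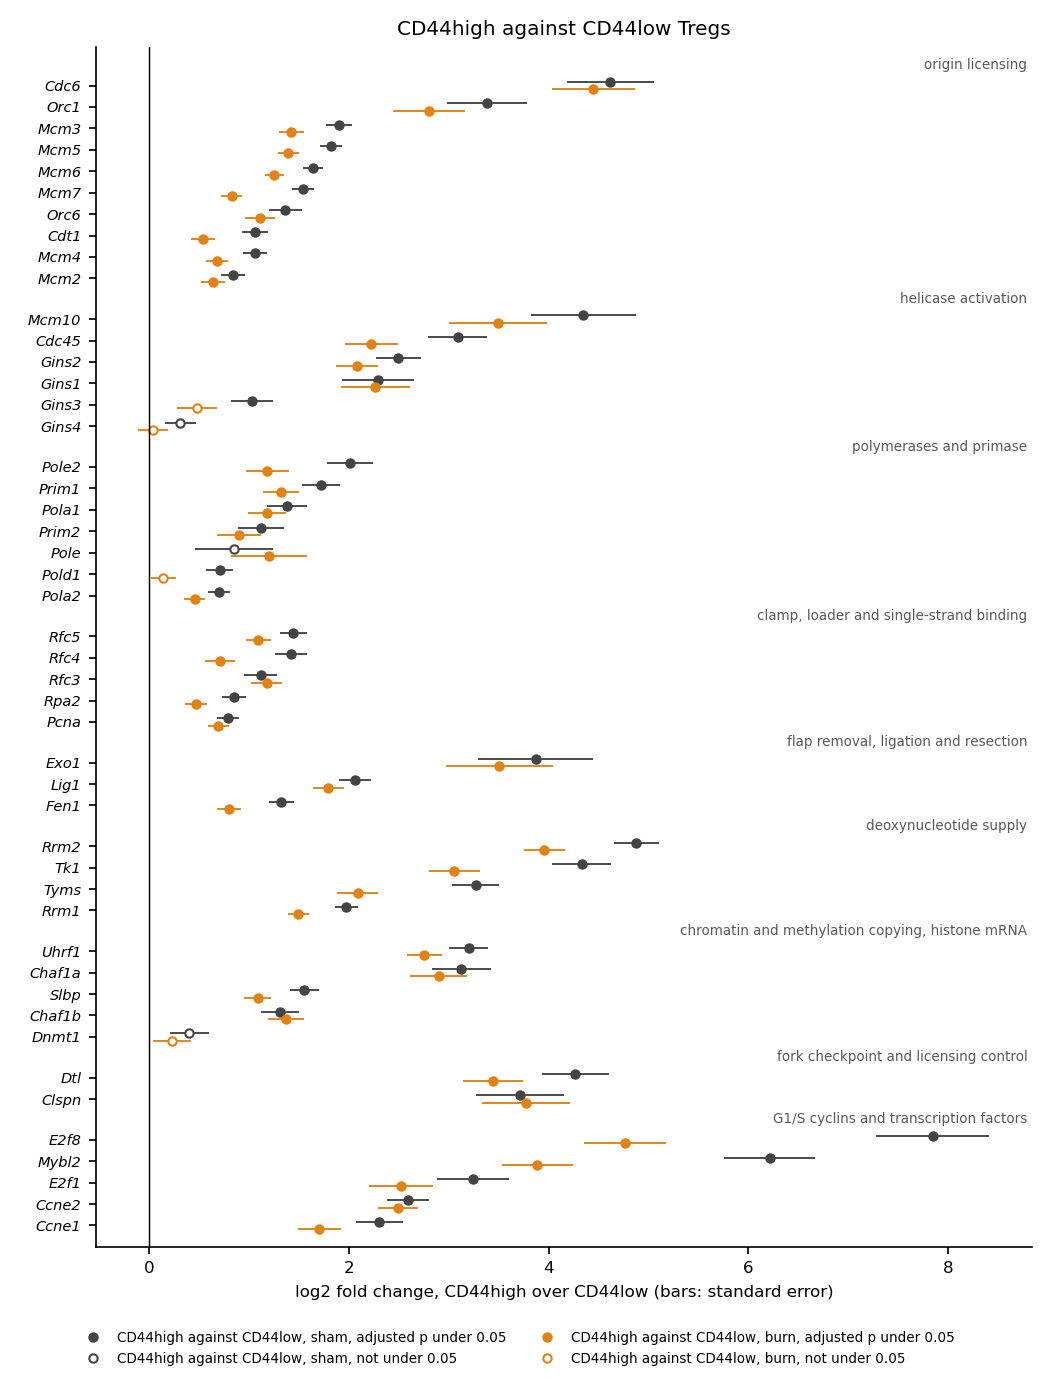
Each row is a gene, ordered by role, and points give the log2 fold change of CD44high over CD44low Tregs with its standard error in sham (grey) and burn mice (orange), filled where the adjusted p is under 0.05. All points lie to the right of 0, although *Gins4* lay below 0 once the trend with transcript length was taken out, and *Dnmt1* and *Gins4* are open in both colours. The fitted changes of *E2f8* and *Mybl2* rest on very few counts in CD44low Tregs.

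All 10 origin licensing genes were higher in CD44high than in CD44low Tregs, in sham mice (log2 differences of 0.84 to 4.62) and in burn mice (0.54 to 4.45). *Cdc6* and *Orc1* stood furthest apart. CDC6 recruits the helicase to the origin, and its mRNA was scarce in CD44low Tregs. It averaged 54.2 ± 15.2 CPM (SD, n = 4) in CD44high sham and 2.16 ± 1.79 CPM (n = 5) in CD44low sham libraries, a log2 difference of 4.62 (SE 0.44, adjusted p = 6.82e-09). *Orc1*, the largest subunit of the origin recognition complex, averaged 15.6 ± 4.03 and 1.49 ± 1.05 CPM (log2 fold change 3.38, SE 0.40, adjusted p = 2.97e-07). *Orc6*, another subunit of that complex, kept a level of 14.6 ± 2.13 CPM in CD44low sham Tregs and differed by 1.36 (SE 0.16, adjusted p = 3.08e-07). *Cdt1*, the partner of CDC6 in loading, differed by 1.06 (SE 0.13, adjusted p = 4.87e-07) in sham and 0.54 (SE 0.12, adjusted p = 0.00151) in burn mice.

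The 6 subunits of the MCM2-7 ring were detected in every library of both subsets. Per kilobase of transcript, the most abundant was *Mcm6* in every group, at 261 and 83.8 CPM per kb in CD44high and CD44low sham Tregs. The least abundant was *Mcm2* in CD44high sham (79.7 CPM per kb) and *Mcm5* in CD44low sham Tregs (26.4 CPM per kb), so that the highest mean was 3.27 and 3.17 times the lowest. *Mcm6* measured 684, 845, 769 and 735 CPM in the CD44high sham and 259, 249, 256, 244 and 211 CPM in the CD44low sham libraries. In burn mice it measured 697, 634, 631 and 579.7 CPM in CD44high libraries, and 243, 256 and 321 CPM (lowest, median and highest) in CD44low libraries. The subsets did not overlap in either condition, and the log2 differences were 1.64 (SE 0.10, adjusted p = 2.32e-12) in sham and 1.25 (SE 0.09, adjusted p = 1.60e-10) in burn mice. *Mcm4* measured 313, 397, 388 and 347 CPM in CD44high sham, 171, 166, 203, 170.5 and 159 CPM in CD44low sham, 271, 279, 314 and 279 CPM in CD44high burn and 142, 184 and 222 CPM (lowest, median, highest) in CD44low burn libraries. Its fitted differences were 1.06 (SE 0.12, adjusted p = 1.10e-07) in sham and 0.68 (SE 0.11, adjusted p = 4.15e-05) in burn mice, again without overlap. *Mcm2*, *Mcm3* and *Mcm5* differed by 0.84, 1.90 and 1.82 log2 units in sham mice.

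The genes that turn the loaded ring into an active helicase spread widely, with log2 differences of 0.31 to 4.35 in sham mice, and 5 of the 6 were called higher in CD44high Tregs there and 4 of the 6 in burn mice. *Mcm10* averaged 26.0 ± 6.01 CPM in CD44high and 1.22 ± 1.34 CPM in CD44low sham Tregs (log2 fold change 4.35, SE 0.53, adjusted p = 3.89e-07). *Cdc45* measured 35.1, 25.6, 43.5 and 44.2 CPM in CD44high sham and 3.90, 3.46, 1.99, 5.74 and 6.75 CPM in CD44low sham libraries. In burn mice *Cdc45* measured 34.2, 24.2, 30.8 and 26.2 CPM in CD44high and 3.23, 5.77 and 10.7 CPM (lowest, median, highest) in CD44low libraries. Its groups did not overlap, and the log2 differences were 3.09 (SE 0.29, adjusted p = 8.11e-09) and 2.22 (SE 0.27, adjusted p = 4.47e-07). The 4 subunits of the GINS complex, which work as 1 unit, ranged from 0.31 to 2.49 in sham mice. *Gins1* and *Gins2* differed by 2.29 and 2.49 log2 units in sham mice, both past the threshold, and *Gins3* by 1.03 (SE 0.21, adjusted p = 3.26e-04) in sham but 0.48 (SE 0.20, adjusted p = 0.0605) in burn mice. *Gins4* did not pass the threshold in either condition, although in sham mice it did without CD44low burn libraries 1_2, 4_2 and 5_2 (adjusted p = 0.0435 in edgeR). It measured 62.3, 48.6, 61.0 and 54.0 CPM in CD44high sham and 38.9, 51.5, 47.1, 40.6 and 49.8 CPM in CD44low sham libraries, where the groups overlapped (log2 fold change 0.31, SE 0.16, adjusted p = 0.113). After burn, *Gins4* measured 65.5, 48.1, 59.6 and 63.6 CPM in CD44high and 39.1, 59.3 and 75.3 CPM in CD44low libraries (lowest, median, highest), with a difference of 0.04 (SE 0.15, adjusted p = 0.856). Taking out the length trend turned the sign of *Gins4* in both conditions. Per kilobase, *Gins4* stood at 33.8 CPM in CD44low sham Tregs, where *Gins1*, *Gins2* and *Gins3* stood at 1.43, 1.22 and 3.66 CPM.

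Of 7 polymerase and primase genes, 6 were called higher in CD44high Tregs in each condition, with log2 differences of 0.70 to 2.01 in sham and 0.14 to 1.32 in burn mice over all 7. *Pold1*, the catalytic subunit of polymerase delta, measured 124, 126, 121 and 113 CPM in CD44high sham and 76.2, 69.4, 65.8, 63.0 and 97.3 CPM in CD44low sham libraries, without overlap (log2 fold change 0.70, SE 0.13, adjusted p = 1.42e-04). After burn it measured 84.2, 88.7, 113 and 86.5 CPM in CD44high and 72.0, 81.8 and 107 CPM (lowest, median, highest) in CD44low libraries, where the groups overlapped (log2 fold change 0.14, SE 0.13, adjusted p = 0.413). The difference of *Pold1* in burn mice lay between 0.033 and 0.21 when 1 library was left out, the lowest without CD44high burn library 4 and the highest without CD44low burn library 5. *Pola2*, the regulatory subunit of polymerase alpha, measured 79.8, 74.5, 83.1 and 73.9 CPM in CD44high sham and 42.9, 45.8, 51.6, 51.6 and 47.2 CPM in CD44low sham libraries (log2 fold change 0.70, SE 0.11, adjusted p = 1.67e-05). In burn mice *Pola2* measured 67.1, 56.1, 54.8 and 54.4 CPM in CD44high and 35.0, 43.5 and 47.4 CPM in CD44low libraries (lowest, median, highest), also without overlap (log2 fold change 0.45, SE 0.11, adjusted p = 0.00164). *Pole2*, the second subunit of polymerase epsilon, had the largest difference in sham mice (log2 fold change 2.01, SE 0.23, adjusted p = 1.94e-07). The catalytic subunit *Pole* was low in every group (at most 2.02 CPM per kb on average), at 14.5 ± 1.77 CPM in CD44high sham and 8.04 ± 4.47 CPM in CD44low sham (log2 fold change 0.85, SE 0.39, adjusted p = 0.0817). The catalytic subunit *Pola1* and the primase genes *Prim1* and *Prim2* differed by 1.38, 1.72 and 1.11 log2 units in sham mice.

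All 5 genes of the sliding clamp, its loader and the single-strand binding protein were called higher in CD44high Tregs in both conditions, with log2 differences of 0.78 to 1.44 in sham and 0.47 to 1.18 in burn mice. *Pcna*, the clamp, measured 118, 124, 139 and 139 CPM in CD44high sham and 70.9, 78.5, 78.9, 73.4 and 75.7 CPM in CD44low sham libraries. In burn mice it measured 119, 121, 114 and 120.4 CPM in CD44high and 57.6, 75.4 and 91.6 CPM (lowest, median, highest) in CD44low libraries. No libraries overlapped, and *Pcna* differed by 0.78 (SE 0.11, adjusted p = 3.63e-06) in sham and 0.69 (SE 0.11, adjusted p = 1.35e-05) in burn mice. *Rpa2*, a subunit of the trimer that coats single-stranded DNA, measured 104, 121, 111 and 98.7 CPM in CD44high sham, 64.2, 58.4, 61.6, 61.0 and 56.3 CPM in CD44low sham, 105, 86.9, 89.8 and 93.7 CPM in CD44high burn and 55.8, 65.9 and 84.9 CPM (lowest, median, highest) in CD44low burn libraries. Its differences were 0.85 (SE 0.12, adjusted p = 2.78e-06) and 0.47 (SE 0.11, adjusted p = 0.00204). *Rfc3*, *Rfc4* and *Rfc5*, subunits of the clamp loader, differed by 1.11, 1.42 and 1.44 log2 units in sham mice.

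The 3 genes for flap removal, ligation and resection were all higher in CD44high Tregs in both conditions. *Fen1*, the flap endonuclease of the lagging strand, measured 184, 185, 191 and 203 CPM in CD44high sham and 84.8, 76.2, 63.1, 77.8 and 80.1 CPM in CD44low sham libraries (log2 fold change 1.32, SE 0.12, adjusted p = 6.53e-09). After burn it measured 165, 122, 159 and 132 CPM in CD44high and 59.1, 87.2 and 94.4 CPM in CD44low libraries (lowest, median, highest), again apart (log2 fold change 0.80, SE 0.12, adjusted p = 9.41e-06). *Lig1*, which joins Okazaki fragments, measured 109, 118, 126 and 118 CPM in CD44high sham and 38.6, 19.5, 24.7, 30.9 and 27.0 CPM in CD44low sham libraries (log2 fold change 2.06, SE 0.16, adjusted p = 2.40e-10), and 83.6, 85.2, 93.2 and 80.6 CPM in CD44high and 20.8, 22.6 and 33.6 CPM in CD44low libraries (lowest, median, highest) in burn mice (log2 fold change 1.79, SE 0.15, adjusted p = 1.56e-09). *Exo1*, an exonuclease of mismatch repair and resection, was scarce, at 18.3 ± 4.10 CPM in CD44high sham and 1.25 ± 1.33 CPM in CD44low sham libraries (log2 fold change 3.87, SE 0.58, adjusted p = 7.96e-06).

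All 4 genes of deoxynucleotide supply were higher in CD44high Tregs in both conditions, and they included the member of smallest p, *Rrm2*. Ribonucleotide reductase is built from a large subunit, RRM1, and a small subunit, RRM2, and the small subunit is the one that is made in S phase and broken down later in the cycle. *Rrm2* measured 284, 366, 333 and 331 CPM in CD44high sham and 16.2, 7.08, 8.79, 15.9 and 7.59 CPM in CD44low sham libraries, a log2 difference of 4.88 (SE 0.23, adjusted p = 2.60e-14), or 29.4-fold. In burn mice it measured 275, 184, 250.2 and 244 CPM in CD44high and 10.8, 14.0 and 21.6 CPM (lowest, median, highest) in CD44low libraries (log2 fold change 3.96, SE 0.20, adjusted p = 2.99e-13, 15.5-fold). The mRNA of the large subunit was detected in every CD44low library. *Rrm1* measured 267, 300.3, 330.4 and 309.5 CPM in CD44high sham, 84.2, 77.0, 76.0, 64.5 and 82.6 CPM in CD44low sham, 223, 216, 235 and 210.0 CPM in CD44high burn and 59.4, 79.1 and 92.5 CPM (lowest, median, highest) in CD44low burn libraries, with differences of 1.97 (SE 0.11, adjusted p = 1.08e-12) and 1.49 (SE 0.11, adjusted p = 8.56e-11). *Tyms*, which makes thymidylate, measured 58.6, 61.0, 72.0 and 74.3 CPM in CD44high sham and 9.68, 2.68, 7.23, 8.62 and 6.07 CPM in CD44low sham libraries (log2 fold change 3.27, SE 0.24, adjusted p = 6.45e-11). In burn mice *Tyms* measured 68.3, 53.4, 63.9 and 64.0 CPM in CD44high and 9.59, 13.8 and 19.6 CPM (lowest, median, highest) in CD44low libraries (log2 fold change 2.09, SE 0.21, adjusted p = 2.35e-08). *Tk1*, which salvages thymidine, averaged 43.4 ± 7.35 and 2.14 ± 1.32 CPM in the sham groups (log2 fold change 4.33, SE 0.30, adjusted p = 2.59e-11).

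Of the genes that copy chromatin and its marks, 4 of 5 were called higher in CD44high Tregs in each condition. UHRF1 finds hemimethylated DNA and brings DNMT1, the methyltransferase, to it. *Uhrf1* measured 129, 149, 196 and 151 CPM in CD44high sham and 25.5, 14.2, 18.0, 14.4 and 13.2 CPM in CD44low sham libraries, and 105, 126, 121 and 110.2 CPM in CD44high burn against 10.3, 18.1 and 21.3 CPM (lowest, median, highest) in CD44low burn libraries. It differed by 3.20 (SE 0.19, adjusted p = 2.18e-12) and 2.75 (SE 0.18, adjusted p = 1.33e-11). *Dnmt1* was abundant in both subsets, with 256, 258, 257 and 276 CPM in CD44high sham, 259, 173, 192, 204 and 165 CPM in CD44low sham, 109, 249, 223 and 166 CPM in CD44high burn and 99.0, 166 and 201 CPM (lowest, median, highest) in CD44low burn libraries. Its groups overlapped and its differences of 0.40 (SE 0.20, adjusted p = 0.101) and 0.22 (SE 0.19, adjusted p = 0.377) did not pass the threshold. In sham mice *Dnmt1* passed it in 3 of 28 alternatives (the compared groups alone, without CD44low sham library 1, and with the length trend taken out), and in burn mice its difference was 0.38 without CD44high burn library 2 and 0.054 without CD44high burn library 3. Its lowest values in the burn groups, in CD44high library 2 and CD44low library 1_2, fell in the libraries of each group with the lowest counts of long against short transcripts. *Dnmt1* has a long transcript (5367 bases). Whether transcript length had a part in these low values was not tested. *Slbp*, which binds the stem-loop of histone mRNAs, measured 205, 249, 243 and 223 CPM in CD44high sham and 66.5, 80.0, 85.7, 67.1 and 92.9 CPM in CD44low sham libraries (log2 fold change 1.55, SE 0.14, adjusted p = 4.32e-09). After burn, *Slbp* measured 254, 180.5, 193 and 204 CPM in CD44high and 68.8, 105 and 118 CPM in CD44low libraries (lowest, median, highest, log2 fold change 1.09, SE 0.13, adjusted p = 7.11e-07). The histone chaperone genes *Chaf1a* and *Chaf1b* differed by 3.12 and 1.31 log2 units in sham mice.

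Both genes of fork checkpoint and licensing control were higher in CD44high Tregs in both conditions and scarce in CD44low Tregs. *Dtl*, part of the ubiquitin ligase that destroys CDT1 in S phase, measured 52.2, 74.7, 63.8 and 53.3 CPM in CD44high sham and 2.03, 1.10, 5.67, 3.59 and 3.20 CPM in CD44low sham libraries (log2 fold change 4.27, SE 0.34, adjusted p = 3.22e-10). After burn, *Dtl* measured 37.0, 57.9, 55.0 and 52.6 CPM in CD44high and 1.03, 4.86 and 7.37 CPM in CD44low libraries (lowest, median, highest, log2 fold change 3.44, SE 0.30, adjusted p = 2.57e-09). *Clspn*, an adaptor of the replication checkpoint, measured 6.59, 14.1, 15.3 and 17.3 CPM in CD44high sham, 0.937, 1.10, 1.70, 0.574 and 0.675 CPM in CD44low sham, 5.57, 8.36, 8.83 and 8.64 CPM in CD44high burn and 0, 0.440 and 1.38 CPM (lowest, median, highest) in CD44low burn libraries. *Clspn* had no count in 1 CD44low burn library, which allows up to 0.537 CPM (3 counts). The subsets did not overlap, and *Clspn* differed by 3.71 (SE 0.44, adjusted p = 2.64e-07) and 3.77 (SE 0.44, adjusted p = 3.25e-07).

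All 5 G1/S cyclins and transcription factors were higher in CD44high Tregs in both conditions. The E-type cyclins drive cells into S phase. *Ccne1* measured 26.0, 26.6, 38.2 and 30.1 CPM in CD44high sham, 6.40, 8.50, 4.54, 4.02 and 7.25 CPM in CD44low sham, 22.8, 28.9, 29.5 and 25.9 CPM in CD44high burn and 5.21, 8.51 and 11.4 CPM (lowest, median, highest) in CD44low burn libraries, with differences of 2.30 (SE 0.23, adjusted p = 2.41e-08) and 1.70 (SE 0.22, adjusted p = 9.79e-07). *Ccne2* measured 38.8, 64.7, 44.0 and 42.5 CPM in CD44high sham, 10.2, 6.61, 7.09, 8.04 and 7.42 CPM in CD44low sham, 33.4, 28.0, 35.1 and 44.5 CPM in CD44high burn and 3.23, 6.57 and 7.88 CPM (lowest, median, highest) in CD44low burn libraries, with differences of 2.59 (SE 0.21, adjusted p = 4.70e-10) and 2.49 (SE 0.20, adjusted p = 6.17e-10). The subsets did not overlap for either cyclin. *E2f1*, an activator of S phase genes, averaged 25.9 ± 3.63 and 2.73 ± 2.41 CPM in the sham groups (log2 fold change 3.24, SE 0.36, adjusted p = 8.38e-08). *E2f8*, an atypical E2F that represses these genes, had 2 counts in all 5 CD44low sham libraries together against 465 in the 4 CD44high sham libraries, a ratio of CPM of 296 with an exact 95% counting interval of 81.5 to 2453. In burn mice the counts of *E2f8* were 17 and 419, a ratio of 28.9 (exact 95% interval 17.9 to 50.1). *Mybl2*, the B-Myb factor that switches on later cell cycle genes, had 9 and 566 counts in the sham groups, a ratio of 80.1 (exact 95% interval 41.9 to 176). These intervals cover counting error only.

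The size of the subset difference went with the level in CD44low Tregs. The 20 genes with a mean under 10 CPM in CD44low sham Tregs had log2 differences of 0.85 to 7.85, with a median of 3.26. The 14 genes at 10 to 50 CPM had a median of 1.37 and the 13 genes at 50 CPM and over a median of 1.32. The level in CD44low Tregs enters both measures, so this is a description of the set. At least 2-fold differences were found in 39 genes in sham and 33 genes in burn mice, at least 4-fold in 21 and 18, and at least 8-fold in 15 and 9. The shares of all tested genes past these folds were not counted, so these numbers only describe the set. The 17 genes with E2F-type letters and the 22 genes with a window but without them had medians of 1.82 and 1.85 in sham mice.

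In CD44high Tregs, *Mcm7* and *Rrm1* fell after injury and none of the 47 genes rose at an adjusted p under 0.05 (edgeR). The fitted change was below 0 for 45 of the 47 genes, and 16 of the 47 were lower at an unadjusted p under 0.05, against 8.33% of all tested genes. Over all tested genes 1.33% were called lower and 1.06% higher, so that the share of members called lower was above that of all genes but rested on 2 genes. The median change of the set was -0.31 on the log2 scale, against -0.0210 for all tested genes. In 14 genes every burn library lay below every sham library, against 7.34% of all tested genes. *Mcm7* went from 217, 286, 248 and 225 CPM in sham to 184, 179, 176 and 179.9 CPM in burn CD44high libraries, a log2 change of -0.44 (SE 0.11, adjusted p = 0.0384). *Rrm1* went from 267, 300.3, 330.4 and 309.5 to 223, 216, 235 and 210.0 CPM (log2 fold change -0.45, SE 0.12, adjusted p = 0.0379). Both genes had no overlap between the groups. The next members, *Pola2* and *Cdt1*, also without overlap, had changes of -0.42 (SE 0.12, adjusted p = 0.0549) and -0.48 (SE 0.14, adjusted p = 0.0647). The 2 positive values were those of *Gins4* (0.07) and *Rfc3* (0.13), neither past the threshold. Both calls were lost when any 1 of the 8 CD44high libraries was left out, and also without CD44low sham library 1, 2, 3 or 5 or CD44low burn library 2. *Mcm7* alone was lost without CD44low sham library 4 or CD44low burn library 5, and *Rrm1* alone without CD44low burn library 4_2, and 3 members were called lower without library 1_2. Shares of all tested genes in these refits are not given.

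**Figure D4:**
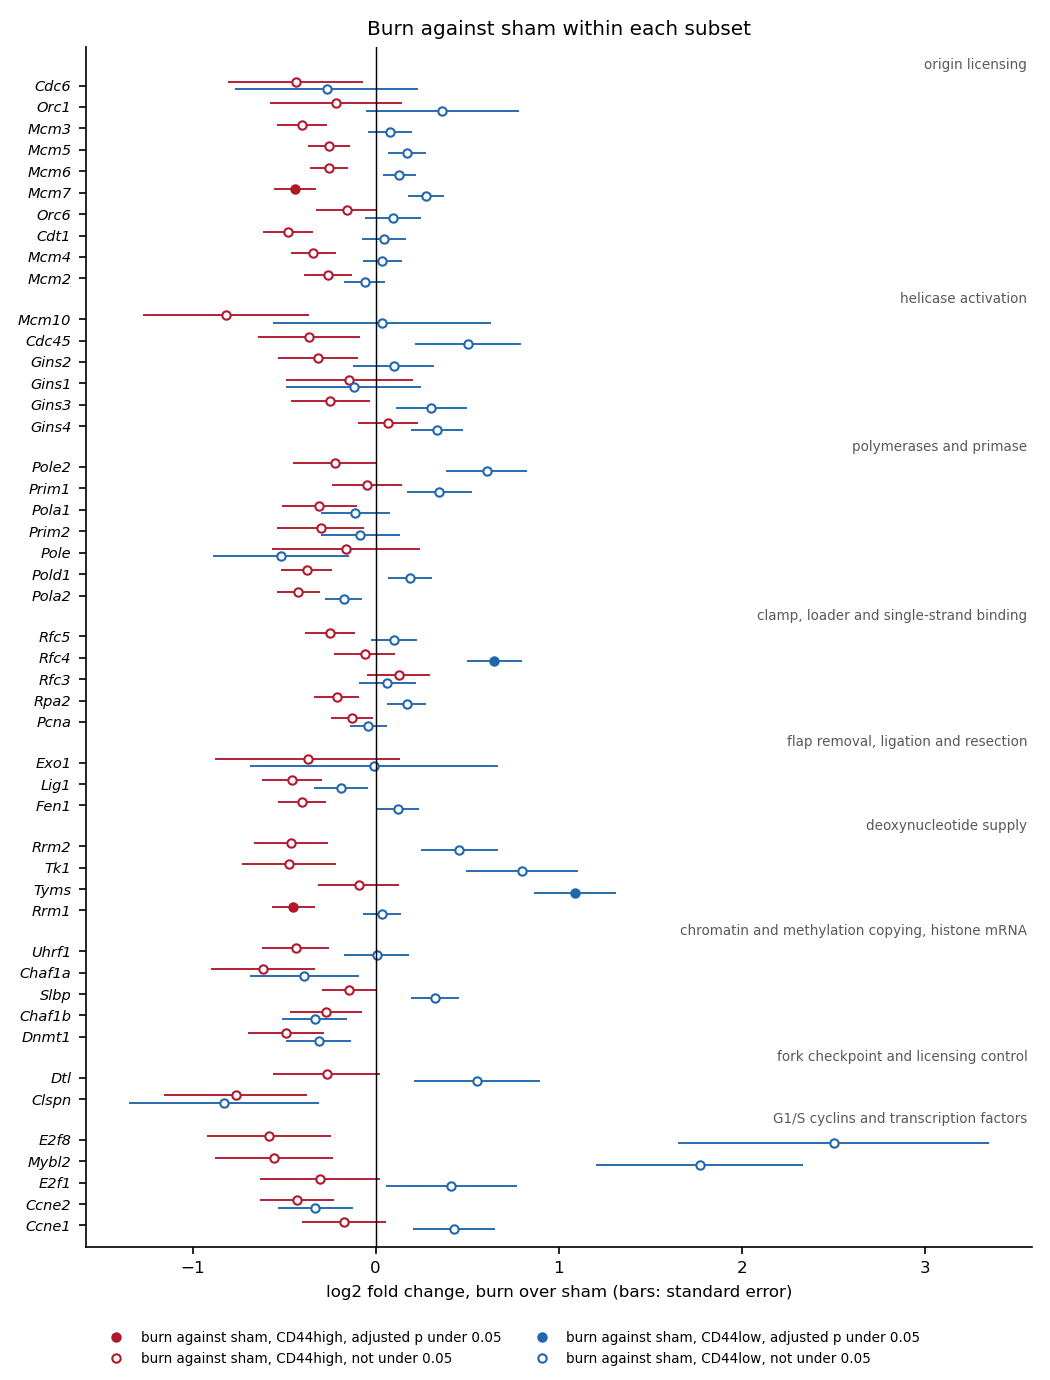
Each row is a gene, ordered by role, and points give the log2 fold change of burn over sham with its standard error in CD44high (red) and CD44low Tregs (blue), filled where the adjusted p is under 0.05. Red points lie to the left of 0 for 45 genes and blue points lie on both sides, and the filled points are *Mcm7*, *Rrm1*, *Tyms* and *Rfc4*.

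In CD44low Tregs, *Tyms* and *Rfc4* rose after injury and the other members lay on both sides of 0. The fitted change was above 0 for 32 and below 0 for 15 of the 47 genes, and the median change was 0.10, against 0.00767 for all tested genes. No member fell, and 4.24% of all tested genes were called higher and 3.36% lower, so that 2 of 47 was close to the share of all genes. At an unadjusted p under 0.05 (edgeR), 10 of the 47 were higher and 0 lower. The share of all tested genes at that threshold is not given, so these 2 numbers only describe the set. *Tyms* went from 9.68, 2.68, 7.23, 8.62 and 6.07 CPM in sham to 9.59, 13.8 and 19.6 CPM (lowest, median, highest) in burn libraries, with overlap, a log2 change of 1.09 (SE 0.22, adjusted p = 0.00591) or 2.13-fold. *Rfc4*, a clamp loader subunit, went from 16.2, 11.8, 18.7, 14.2 and 17.5 CPM to 19.9, 23.9 and 31.1 CPM (lowest, median, highest, log2 fold change 0.65, SE 0.15, adjusted p = 0.0119). *Rfc4* was the single member whose groups did not overlap, against 2.39% of all tested genes. *Mybl2* and *E2f8* had larger fitted changes at very low counts that did not pass the threshold (adjusted p = 0.0547 and 0.0675). The CD44low burn libraries fell into labels with and without an added second number, and the labels do not say what that number means. The mean level of the set was 3.95 to 4.13 log2 CPM in libraries 1, 2 and 5 and 3.70 to 3.89 in libraries 1_2, 4_2 and 5_2. The latter range overlapped that of the sham libraries, and leaving these 3 libraries out raised the number of members called higher from 2 to 6. Without library 5_2 alone it was 7, without CD44low sham library 3 or CD44low burn library 2 it was 4, and *Tyms* and *Rfc4* were called in every fit that left out 1 library. Without libraries 1, 2 and 5, *Pole2* and *Tyms* were called and *Rfc4* was not (adjusted p = 0.0929 in edgeR). The shares of all tested genes called in these refits are not given, so the counts of members only describe the set.

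The change with injury was tested for a difference between the subsets by an interaction term, the change in CD44low minus the change in CD44high Tregs. *Mcm7* alone passed the threshold, at 0.71 (SE 0.15, adjusted p = 0.0227), with a log2 change of -0.44 in CD44high and 0.27 (SE 0.10, adjusted p = 0.0862) in CD44low Tregs. In the latter *Mcm7* measured 76.4, 83.6, 89.2, 89.6 and 80.4 CPM in sham and 85.0, 101 and 121 CPM (lowest, median, highest) in burn libraries, which overlapped. Among all tested genes, 0.454% had a positive and 0.192% a negative interaction at this threshold. Of the 47 genes, 43 had a positive term, with a median of 0.41 against 0.0255 for all tested genes, and 19 were positive at an unadjusted p under 0.05, against 6.93% of all tested genes. A positive term means that the fitted gap between the subsets was narrower in burn than in sham mice. *Tyms* came next (log2 fold change 1.18, SE 0.31, adjusted p = 0.0879). Without libraries 1_2, 4_2 and 5_2 the interaction was called for 8 members, and without libraries 1, 2 and 5 for 0 (edgeR in both fits). The call of *Mcm7* was also lost without CD44high sham library 3 or 4, and without CD44high burn library 4 or 5, and 2 members were called without CD44low sham library 2 or 3 or CD44low burn library 5_2. For these refits too the shares of all tested genes are not given.

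**Figure D5:**
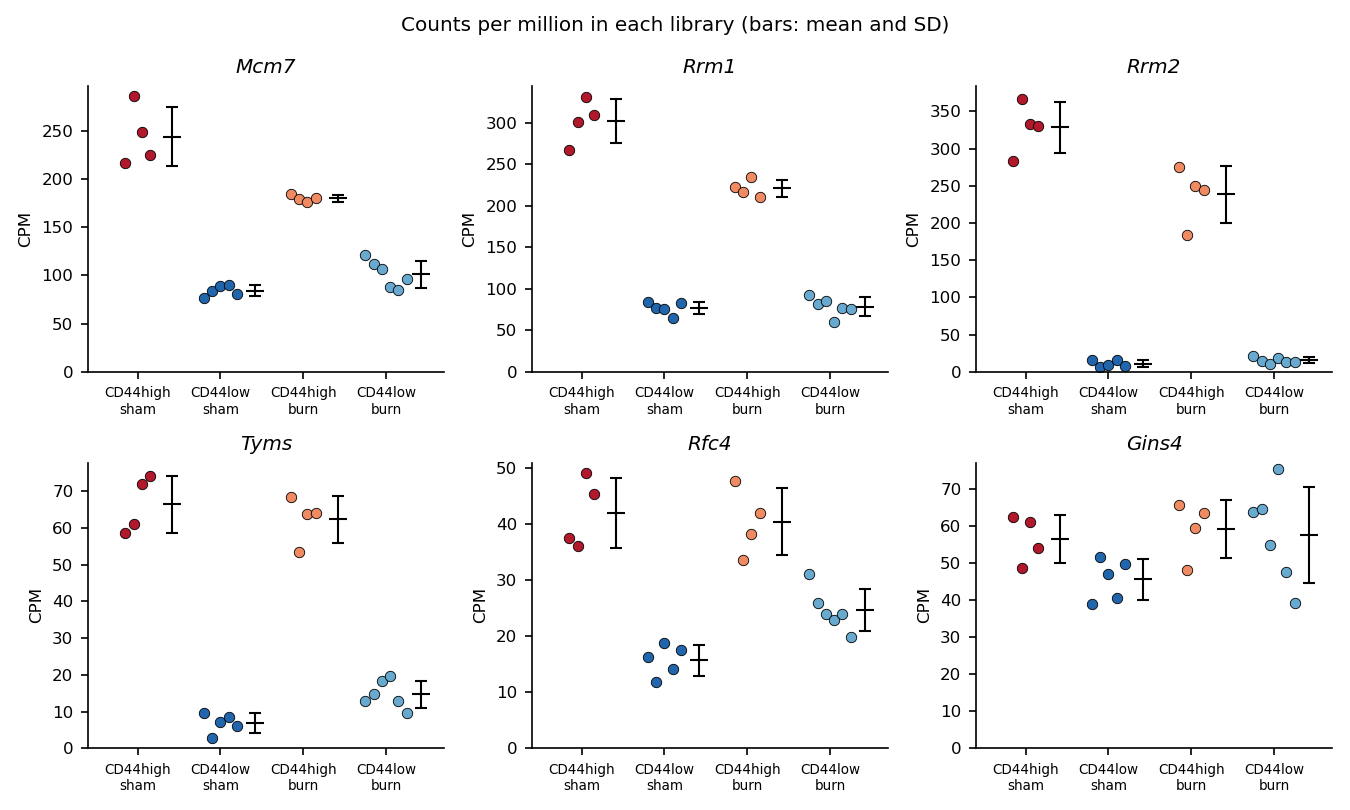
Points are libraries, grouped by subset and injury, with CPM on vertical axes that start at 0 and bars for the mean and SD, for 6 members. *Mcm7* and *Rrm1* are lower in every CD44high burn library than in every CD44high sham library, *Rrm2* and *Tyms* are low in all CD44low libraries, and the groups of *Gins4* overlap.

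Other genes of the pathway, from lists written by hand with earlier results of these data known, set these values in context. Of 38 further genes of the replication machinery, 17 were called higher and 3 lower in CD44high Tregs of sham mice, with a median of 0.39, and 16 and 1 in burn mice. Over all tested genes, 24.7% were higher and 21.3% lower in sham mice, and 20.1% and 17.2% in burn mice. Of the 38, those of smallest p were *Gmnn*, which encodes the CDT1 inhibitor geminin, at 2.61 (SE 0.17, adjusted p = 7.30e-12), and *Top2a*, a topoisomerase, at 3.95 (SE 0.30, adjusted p = 2.08e-10). In CD44high Tregs 0 of the 38 were called with injury by edgeR (smallest p for *Timeless*, -0.51, SE 0.15, adjusted p = 0.0777), and in CD44low Tregs 1 rose and 3 fell, among them *Topbp1* (log2 fold change -0.71, SE 0.16, adjusted p = 0.0122) and *Timeless* (log2 fold change -0.55, SE 0.13, adjusted p = 0.0142), both factors of the fork and its checkpoint. Over all tested genes, injury calls were 1.06% higher and 1.33% lower in CD44high Tregs, and 4.24% higher and 3.36% lower in CD44low Tregs. The 1 of 38 that rose was thus not above the share of all genes. Of 30 genes of nucleotide synthesis, 7 were higher and 10 lower in CD44high sham Tregs, and 4 and 9 in burn mice. The shares of all tested genes were 24.7% and 21.3% in sham and 20.1% and 17.2% in burn mice. The share of the 30 called higher was thus near or below that of all genes, and the share called lower was above it. Their median differences were -0.20 in sham and -0.030 in burn mice. *Dck* and *Dut*, which act on deoxynucleotides, were higher (log2 fold change 1.50, SE 0.15, adjusted p = 1.38e-08 and 1.48, SE 0.15, adjusted p = 3.53e-08 in sham mice), and *Impdh1*, of guanine nucleotide synthesis, was lower (log2 fold change -0.83, SE 0.09, adjusted p = 7.49e-08 in burn mice). With injury, 1 of the 30, *Dtymk*, which encodes thymidylate kinase, rose in CD44low Tregs (log2 fold change 0.44, SE 0.13, adjusted p = 0.041), and 0 of the 30 were called in CD44high Tregs by edgeR, where the smallest p belonged to *Ppat* (log2 fold change 0.27, SE 0.12, adjusted p = 0.304). The share called higher in CD44low Tregs was thus near that of all genes.

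Of 28 genes of S phase chromatin and repair, 27 were tested. In sham mice 16 were higher and 1 lower in CD44high Tregs, those of smallest p being *Pclaf*, a PCNA-binding factor (log2 fold change 5.73, SE 0.32, adjusted p = 6.78e-13), and *Asf1b*, a histone chaperone (log2 fold change 3.40, SE 0.23, adjusted p = 2.58e-11). In burn mice 17 were higher and 1 lower. Over all tested genes, 24.7% were higher and 21.3% lower in sham mice, and 20.1% and 17.2% in burn mice. After injury *Rad18* was lower in CD44high Tregs (log2 fold change -0.60, SE 0.14, adjusted p = 0.024), and in CD44low Tregs *Blm* was lower (log2 fold change -1.30, SE 0.24, adjusted p = 0.00311) and *Asf1b* higher (log2 fold change 0.87, SE 0.22, adjusted p = 0.0177). Each was the single call of the 27 in its direction. Over all tested genes 1.33% were lower in CD44high Tregs. In CD44low Tregs 3.36% were lower and 4.24% higher, close to the shares of this list. Of 25 RB and E2F regulators, 24 were tested. In CD44high Tregs 16 in sham and 13 in burn mice were higher, against 24.7% and 20.1% of all tested genes, with none lower. *Ccna2*, cyclin A2, differed by 4.10 (SE 0.18, adjusted p = 1.18e-14) and *Cdkn2c*, a CDK inhibitor, by 3.58 (SE 0.17, adjusted p = 3.64e-14) in sham mice. *Cdkn2c* and *Lin54* fell with injury in CD44high Tregs (log2 fold change -0.60, SE 0.16, adjusted p = 0.0418 and -0.55, SE 0.15, adjusted p = 0.0426), *Cdk4* and *Tfdp1*, the E2F partner, rose in CD44low Tregs (log2 fold change 0.34, SE 0.08, adjusted p = 0.0171 and 0.34, SE 0.10, adjusted p = 0.0411), where 1 of the 24 fell (*Cdkn1b*, a CDK inhibitor, named after its values were seen), and *Ccna2* had a called interaction (log2 fold change 1.10, SE 0.24, adjusted p = 0.0245). These were 2 of 24 lower in CD44high Tregs, 2 higher in CD44low Tregs and 1 positive interaction. The shares of all tested genes were 1.33%, 4.24% and 0.454%.

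All 24 genes of G2 and M phase were called higher in CD44high Tregs in both conditions. Over all tested genes 24.7% in sham and 20.1% in burn mice were called higher. The median differences of the 24 genes were 5.00 in sham and 3.70 in burn mice. Their mean log2 CPM was 5.87 ± 0.13 (SD, n = 4) in CD44high sham, 1.25 ± 0.36 (n = 5) in CD44low sham, 5.25 ± 0.10 (n = 4) in CD44high burn and 1.87 ± 0.34 (n = 6) in CD44low burn Tregs. The difference of these means between the subsets of sham mice was 4.62, against 2.27 for the 47 replication and S phase genes, and both lists share the same libraries. *Mki67*, the proliferation antigen, averaged 80.9 ± 18.7, 2.70 ± 1.87, 47.6 ± 8.31 and 4.34 ± 3.11 CPM in the same order of groups. With injury 1 of the 24 fell in CD44high Tregs, *Racgap1*, a factor of cytokinesis (log2 fold change -0.76, SE 0.17, adjusted p = 0.0148), and 4 rose in CD44low Tregs, among them *Ccnb2*, cyclin B2 (log2 fold change 1.59, SE 0.24, adjusted p = 5.54e-04), and *Racgap1* (log2 fold change 0.97, SE 0.17, adjusted p = 0.00165). The interaction was called for 3 of the 24, all positive, with *Racgap1* at 1.73 (SE 0.24, adjusted p = 5.40e-04) and *Ccnb2* at 2.17 (SE 0.30, adjusted p = 5.40e-04). Over all tested genes, 1.33% fell in CD44high Tregs, 4.24% rose in CD44low Tregs and 0.454% had a positive interaction.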

How the data were processed

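Bulk RNA-seq was carried out on 19 libraries of CD44high and CD44low Tregs. The authors deposited raw counts of reads per gene, not normalized, made with STAR 2.5 (version from the submitters' processing notes, which also name bcl2fastq 2.18 and the builds mm9 and mm10 with no role) through the VIPER workflow. Library totals ranged from 5582234 to 9433610 counts. Of 24982 genes, 8091 had no count and 11464 passed edgeR's filter (minimum count 10). Groups were taken from the labels. Counts were scaled by TMM factors and fitted with 1 mean per group over all 4 groups, without covariates, in edgeR 4.0.16 (limma 3.58.1, R 4.3.3). Comparisons used the two-sided quasi-likelihood test with Benjamini-Hochberg adjustment over all genes tested and a threshold of 0.05. Levels are CPM (counts of a gene per library total after TMM scaling, in the usual units), log2 CPM used a prior count of 2, and levels per kb used the GENCODE vM21 transcript with the longest coding sequence. The scripts were tested on simulated data.

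The 47 genes, the role groups and the other lists were chosen with earlier results of these data known, so that their counts and medians are descriptions. Values in every library were given for the members with the highest level per length in each role group (2 per group) and those of smallest p among the called (up to 3 per comparison and direction). Of each other list the 2 genes of smallest p per comparison could be named. *Igha* and *Ighg1* of the plasma cell list were not found. Promoter windows were matched by symbol. Alternatives were RLE factors, DESeq2 1.42.0, no filter, the compared groups alone, a replicate block, the CD44low burn libraries 1 with 1_2 and 5 with 5_2 summed, either 3 of these libraries left out, other prior counts for the mean level, each library left out in turn and stricter thresholds. Taking out the trend with transcript length, and leaving out libraries from the mean level, were chosen after seeing the data.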

Additional observations from a re-analysis of the deposited data

Results flagged for a closer look

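Among 92 groups of 4 to 6 libraries tested for a single far value in log2 CPM, mostly of the genes given in full, 6 had one by Dixon's test at the 95% level, which chance flags in about 1 in 20 groups. *Mcm6* stood at 7.72 in CD44low sham library 5, with the other libraries at 7.93 to 8.02. *Fen1* and *Ccne2* were low in the same library, CD44low burn 4_2, at 5.89 (others 6.38 to 6.57) and 1.82 (others 2.70 to 3.03). In CD44high burn library 2, which had the lowest counts of long against short transcripts of its group, *Pola2* was high at 6.08 (others 5.77 to 5.82) and *Clspn* low at 2.55 (others 3.11 to 3.19). *Dnmt1* stood at 8.11 in CD44high sham library 5 (others 8.0 to 8.02). The change of *Mcm7* with injury differed between the subsets by 0.71 on the log2 scale (SE 0.15, edgeR's interaction test, adjusted p = 0.0227).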

How the results depend on the processing

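Between the subsets 44 to 46 members were called higher in sham and 42 to 44 in burn mice under every alternative except p under 1e-06 and 2-fold (36 and 29), and 0 were lower. Their median moved to 1.63 in sham mice with the length trend taken out and to 1.52 in burn mice without CD44low burn libraries 1, 2 and 5. The difference in mean level was 2.41 with a prior count of 0.5 and 2.05 as a median over members in sham mice, and 1.61 as a median in burn mice. The number of members lower after injury in CD44high Tregs (2) was 4 with DESeq2, 0 with no filter, 7 in the compared groups alone, 5 with libraries summed, 7 without libraries 1_2, 4_2 and 5_2, 0 at an adjusted p under 0.01 or at p under 1e-06 and 2-fold, and 0 to 3 without 1 library. The number higher in CD44low Tregs (2) was 6 with DESeq2, 6 without libraries 1_2, 4_2 and 5_2, 1 and 0 at the stricter thresholds, and 2 to 7 without 1 library. The interaction (1 member) was called for 4 with DESeq2, 8 without libraries 1_2, 4_2 and 5_2 (median 0.56), 0 without libraries 1, 2 and 5 (median 0.29), 0 at both stricter thresholds, and 0 to 2 without 1 library. Of 28 alternatives, 17 ended the CD44high calls of *Mcm7* and 17 of *Rrm1* (adjusted p up to 0.200 and 0.141), 1 that of *Rfc4*, and 5 of 27 the interaction of *Mcm7*. *Gins4* turned to -0.034 in sham and -0.20 in burn mice with the length trend taken out, to -0.045 in burn mice without libraries 1_2, 4_2 and 5_2, and lay between -0.058 and 0.13 there without 1 library. The causes were not tested. Shares of all tested genes under each alternative are not given, so these counts of members only describe the set.

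Of 4 same-numbered pairs of CD44high and CD44low burn libraries, 3 had deviations correlated above 0.1 (median of the 4 pairs 0.11, highest 0.17, against a median of -0.048 for different numbers) and 1 lay at -0.054. In the other comparisons same-numbered libraries lay from -0.12 to 0.12. Not every pair exceeded 0.1, and CD44high burn library 2 correlated best with CD44low burn library 1 (0.33). Pairs of different numbers in these groups ranged from -0.45 to 0.41, wider than the same-numbered pairs. These correlations therefore could not settle whether libraries of the same number were paired. The numbers were not taken as pairs in the main fit. With the replicate block 0 members were lower after injury in CD44high Tregs, 3 were higher in CD44low Tregs, and the interaction was called for 1 member.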

Other observations

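Ratios between partner mRNAs within a library, per kilobase of transcript, were chosen after their values were seen and are descriptions without a test. The ratio of *Rrm2* to *Rrm1*, the small and the large subunit of ribonucleotide reductase, was 1.99 ± 0.166 (SD, n = 4) in CD44high sham, 1.97 ± 0.301 (n = 4) in CD44high burn, 0.270 ± 0.126 (n = 5) in CD44low sham and 0.364 ± 0.121 (n = 6) in CD44low burn Tregs. Per kilobase, the mRNA of the small subunit thus exceeded that of the large subunit in every CD44high library (lowest ratio 1.55) and stayed below it in every CD44low library (highest ratio 0.576). In CPM without scaling to length, *Rrm2* lay below *Rrm1* in CD44high burn library 3 (184 against 216 CPM) and above it in the other CD44high libraries. The part of the differing counts of long against short transcripts in these ratios was not tested. The ratio of *Uhrf1* to *Dnmt1* was 0.895 ± 0.171 and 1.00 ± 0.307 in CD44high sham and burn Tregs, against 0.127 ± 0.0167 and 0.164 ± 0.0443 in CD44low sham and burn Tregs. The ratio of *Gins2* to *Gins4*, subunits of the same complex, was 0.167 ± 0.0446 and 0.127 ± 0.00880 in the CD44high groups and 0.0358 ± 0.0102 and 0.0319 ± 0.0111 in the CD44low groups. *Cdc6* to *Mcm6*, the loader to the most abundant helicase subunit, stood at 0.0803 ± 0.0165 in CD44high sham and 0.00983 ± 0.00821 in CD44low sham Tregs, where the lowest value was 0.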
